A study of Mus musculus with 2 samples.

Results

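Genes that set how long inflammatory mRNAs last, 10 in number, were described in mouse bone marrow-derived macrophages exposed to lipid A for a second time. They are the AU-rich element binders Zfp36, Zfp36l1, Zfp36l2 and Khsrp, the Regnases Zc3h12a and Zc3h12c, the Roquins Rc3h1 and Rc3h2, and the stabilising proteins Elavl1 and Arid5a. These 10 of 55536 annotated genes were chosen by symbol for their known roles, with earlier results of these data known. All 10 were found and measured. Transcript levels came from polyA RNA-seq of 2 libraries, given in the labels as biological replicates 1 and 2 of a single group.

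Both libraries were made from primary macrophages of the C57BL/6J strain, grown from bone marrow. The cells had been held in 100 ng/ml lipid A, the TLR4-activating lipid part of lipopolysaccharide, for 12 h. They were then washed for 12 h and given 100 ng/ml lipid A once more for 120 min. The labels name the agent lipid A in the description and lipoprotein A in other fields, and the name in the description is used here. Age and sex were not collected. The donor identifier is the same for both and separate animals are not mentioned, so differences between the libraries may be technical. No untreated or once-treated sample was analysed here, so the values are levels at 1 point of the response and not changes.

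In macrophages many cytokine and chemokine mRNAs carry AU-rich elements in their 3′ UTRs. Zfp36 (tristetraprolin) and its paralogs bind these elements through CCCH zinc fingers and recruit the CCR4-NOT deadenylase, after which the mRNA body is decapped and degraded. Regnase-1, the product of Zc3h12a, is an endonuclease that cuts stem-loops in 3′ UTRs, and the Roquins bind such stem-loops and recruit decay factors. Elavl1 (HuR) and Arid5a bind some of the same target mRNAs and stabilise them.

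All 10 genes were expressed, with the highest at 18.8 times the level of the lowest in replicate 1 and 30.4 times in replicate 2. Zfp36 stood highest at 145 ± 18.2 TPM (SD, n = 2) and Zc3h12a next at 103 ± 22.4 TPM, while the Roquins Rc3h1 and Rc3h2 stood lowest at 9.68 ± 0.898 and 6.13 ± 1.31 TPM. TPM is an abundance corrected for transcript length and scaled to a fixed total, so genes can be set side by side on it. Their median level was 43.4 TPM, against 18.2 TPM over the 9773 protein-coding genes with at least 1 TPM in both libraries. At least 10 TPM in both libraries was reached by 8 of the 10 genes, and by 27.2% of all 22028 protein-coding genes. That share is 5990 genes, all of them among the 9773, and its base also counts genes that are not expressed. In bulk RNA, more cells that express a gene and more RNA per cell cannot be told apart.

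The libraries held 45377715 expected counts in replicate 1 and 32112416 in replicate 2, so 3 reads, taken as the detection floor, correspond to 0.0661 and 0.0934 CPM (counts scaled to a fixed total). The lowest mean among the 10 genes was 1325 reads, that of Rc3h2, so none was near the floor. All 10 macrophage markers examined reached 10 TPM in both libraries, with Lyz2 at 8979 and 9815 TPM and Adgre1 at 2554 and 2061 TPM. All 6 T cell and all 5 stromal markers were under 1 TPM in both. So were 4 of 5 B cell markers, with Ighm at 1.93 and 1.54 TPM, and 4 of 5 dendritic cell markers, with Ccr7 at 4.55 and 3.6 TPM. Of 9 neutrophil markers, Ly6g and Retnlg were at 0 reads in both libraries, but the list summed to 63.5 TPM in replicate 1 and 6.58 TPM in replicate 2, with S100a9 at 26.4 and 1.18 TPM. Whether this moves with the ratios between libraries given below was not tested.

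**Figure D1:**
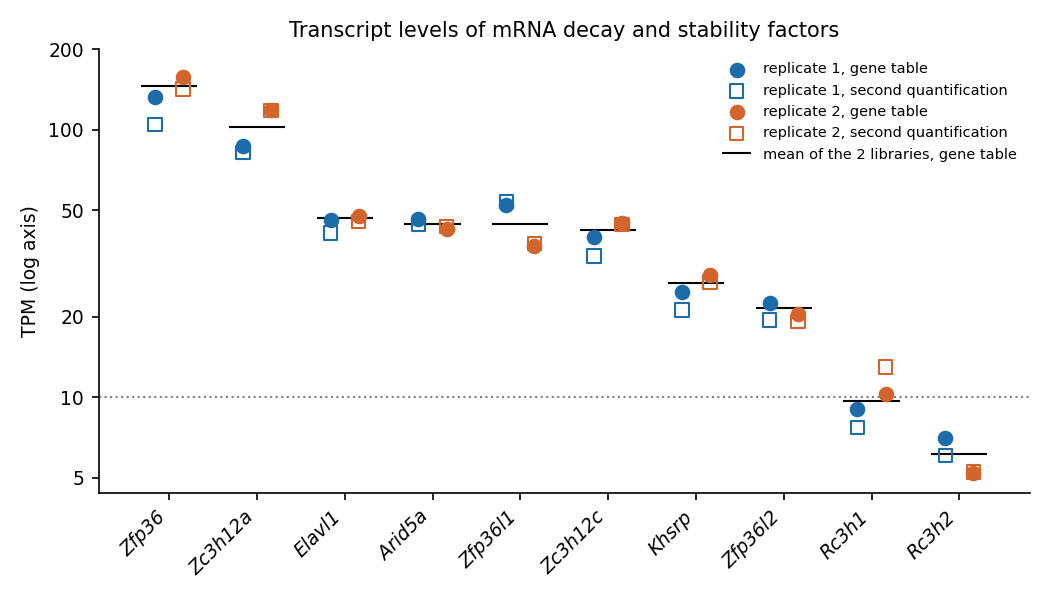
Level of each gene in TPM (log axis) in replicate 1 (blue, left) and replicate 2 (orange, right) of a single group. Filled circles are the gene table, open squares the second quantification of the same reads, bars the mean of the filled circles, and the dotted line 10 TPM. Zfp36 and Zc3h12a stand above the others in both libraries and both quantifications, and the Roquins lie at the bottom.

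Among the AU-rich element binders, Zfp36 (tristetraprolin, which directs decay of Tnf and other cytokine mRNAs; ENSMUSG00000044786.6, chr7:28376784-28380253, minus strand, mm10) had 132.4 TPM in replicate 1 and 158.1 TPM in replicate 2. These came from 10229 and 8392 reads. Zfp36 exceeded 89.6% of the expressed protein-coding genes in replicate 1 and 91.0% in replicate 2. After scaling for depth it was 1.22-fold higher in replicate 2 (95% counting interval 1.19 to 1.26), and 54.6% of the 9702 genes averaging 100 reads or more lay further apart than that.

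Zfp36l1 (chr12:80107754-80113013, minus strand), a paralog that acts on AU-rich mRNAs in the same way, was the family member that differed most between libraries. Its 52.2 TPM in replicate 1 and 36.7 TPM in replicate 2 came from 4432 and 2115 reads, and it was 1.41-fold higher in replicate 1 (1.34 to 1.48). Zfp36l2 (chr17:84183931-84187947, minus strand), a further paralog, had 22.5 and 20.5 TPM. Zfp36l3, a paralog known from rodent placenta, had 0 reads in both libraries. The 3 expressed paralogs summed to 207 and 215 TPM, nearly equal totals with different makeup, since Zfp36 held 63.9% of the sum in replicate 1 and 73.4% in replicate 2. The level of Zfp36 was accordingly 2.54 times that of Zfp36l1 in replicate 1 and 4.31 times in replicate 2.

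The value of Zfp36l1 carries a caveat from its locus. A lincRNA gene on the opposite strand, Gm26669 (chr12:80108034-80113000), overlaps it over 4967 bases, and whether the counting used strand is not given in the sources used here. Gm26669 was assigned 854 reads in replicate 1 and 0 in replicate 2. With these reads added to Zfp36l1, an alternative chosen after seeing the data, the gene had 5286 and 2115 reads and was 1.68-fold higher in replicate 1 (1.60 to 1.77). In the second quantification, which was made from the reads without an alignment file, Zfp36l1 was 1.60-fold higher in replicate 1 (1.53 to 1.68), and Gm26669 was assigned 353 and 0 reads. The direction was the same in each of these, and only the last 2 pass 1.5-fold.

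The transcripts of the Zfp36 family themselves carry the AU-rich core that their proteins bind. The heptamer TATTTAT was searched on the transcript strand of the 3′ UTR of the highest protein-coding transcript with a complete 3′ end, with overlapping matches counted. The windows below are shown because they place that core in its sequence context. They are 27 bases of the GENCODE M21 transcripts, 5′ to 3′, with the heptamer in capitals. All lie on the minus strand of mm10, at chr7:28376967-28376993, chr7:28376952-28376978 and chr7:28376927-28376953 for Zfp36, chr12:80108168-80108194 for Zfp36l1 and chr17:84184915-84184941 for Zfp36l2.
Zfp36 match 1: gtgggcccttTATTTATgacgacttta
Zfp36 match 2: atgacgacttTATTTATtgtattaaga
Zfp36 match 3: gattttatagTATTTATatatattggg
Zfp36l1 match 3: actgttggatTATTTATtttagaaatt
Zfp36l2 match 1: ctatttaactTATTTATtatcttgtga

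All 3 paralogs held 3 heptamers, in 3′ UTRs of 774 bases in Zfp36, 1835 in Zfp36l1 and 1822 in Zfp36l2. In Zfp36 they began at bases 575, 590 and 615 of the 3′ UTR, and the windows of matches 1 and 2 printed above share bases. Match 2 of Zfp36, match 3 of Zfp36l1 and match 1 of Zfp36l2 sit inside the longer nonamer TTATTTATT. At least 3 heptamers were found in 3.01% of the 9710 expressed genes with such a 3′ UTR. Among the 1319 genes with a 3′ UTR of like length to that of Zfp36 (a log2 length ratio of at most 0.32), the share was 0.531%. At the lengths of Zfp36l1 and Zfp36l2 it was larger, 3.54% and 3.57%. At that of Rc3h2, which also held 3 heptamers, it was 13.8%. Heptamers and nonamers here are letter matches, and binding was not measured.

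Khsrp (KSRP, a KH-domain protein that promotes decay of AU-rich mRNAs; chr17:57021051-57031522, minus strand) had 24.8 TPM in replicate 1 and 28.6 TPM in replicate 2. It was 1.19-fold higher in replicate 2 (1.12 to 1.26). Its 3′ UTR of 1642 bases held no heptamer and 1 copy of the shorter pentamer ATTTA.

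Of the Regnases, Zc3h12a (Regnase-1, which cuts Il6 and Il12b mRNA among others; chr4:125118423-125127840, minus strand) had 87.0 TPM in replicate 1 and 119 TPM in replicate 2. It was 1.33-fold higher in replicate 2 (1.29 to 1.38), and 39.3% of genes with at least 100 reads lay further apart. Zc3h12c (Regnase-3; chr9:52111344-52168572, minus strand), a relative with the same nuclease domain, had 39.7 and 44.9 TPM. Regnase-1 transcripts thus made up 68.7% of the sum of the pair in replicate 1 and 72.6% in replicate 2, a ratio of 2.19 and 2.64. Of the other Regnases, Zc3h12d had 13.7 and 13.9 TPM, a gene named after its values were seen. Zc3h12b was under 1 TPM in both libraries, and N4bp1, a ribonuclease with a related nuclease domain, had 53.8 and 56.1 TPM.

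The Roquins were the lowest of the 10. Rc3h1 (Roquin-1; chr1:160906418-160974978, plus strand) had 9.04 TPM in replicate 1 and 10.3 TPM in replicate 2. Rc3h2 (Roquin-2; chr2:37370069-37422903, minus strand) had 7.05 and 5.20 TPM, and was 1.32-fold higher in replicate 1 (1.22 to 1.43). The level of Zc3h12a, whose protein acts on many of the same stem-loops, was 9.62 times that of Rc3h1 in replicate 1 and 11.5 times in replicate 2. Both Roquins summed to 16.1 and 15.5 TPM, and to 13.8 and 18.3 TPM in the second quantification.

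Roquin and Zc3h12c transcripts have long 3′ UTRs, of 7181 bases in Rc3h1, 5160 in Rc3h2 and 4062 in Zc3h12c, and each held 2 or 3 heptamers. The match of each Roquin printed here lies inside a nonamer, and Zc3h12c has none. The windows below are shown to set the context of 1 match of each beside those of Zfp36. They lie at chr1:160970044-160970070 on the plus strand for Rc3h1, and on the minus strand at chr2:37373288-37373314 for Rc3h2 and chr9:52114863-52114889 for Zc3h12c, in mm10, with the heptamer in capitals.
Rc3h1 match 1: ctttactcatTATTTATtgagatgagg
Rc3h2 match 3: aaagacatttTATTTATtttactctgt
Zc3h12c match 1: ctataatcatTATTTATaggaacaaag

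The matches in Rc3h1 lay 1354 bases apart and those in Zc3h12c 2879 bases apart, neighbouring matches in Rc3h2 were 258 and 1211 bases apart, and neighbouring matches in Zfp36 were 15 and 25 bases apart. Such matches were more frequent in longer 3′ UTRs: of 120 expressed genes with a 3′ UTR of like length to that of Rc3h1, 80.8% held a heptamer, against 19.7% of genes of the length of Zfp36. In all, 6 of the 10 genes held a heptamer, and 26.4% of expressed protein-coding genes did, but the 10 also had longer 3′ UTRs, with a median of 1732 bases against 891. Zc3h12a, whose own mRNA is a Regnase-1 and Roquin target through stem-loops, held none in 856 bases.

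The stabilisers stood below Zfp36 and Zc3h12a and above the Roquins, in the same range as Zfp36l1 and Zc3h12c. Elavl1 (HuR, which binds AU-rich and U-rich sequences; chr8:4285382-4325413, minus strand) had 46.01 TPM in replicate 1 and 47.7 TPM in replicate 2. Arid5a (which protects Il6 mRNA from Regnase-1; chr1:36307733-36324029, plus strand) had 46.5 and 42.6 TPM. Both were nearly level between libraries, Elavl1 at 1.08-fold (1.02 to 1.15) higher in replicate 1 and Arid5a at a ratio of replicate 1 to replicate 2 of 0.968 (0.902 to 1.04). They are also the only 2 of the 10 whose direction depended on the scaling: by the ratio of TPM, Elavl1 was higher in replicate 2 and Arid5a in replicate 1, and Arid5a was also higher in replicate 1 by library totals. Together they summed to 92.6 and 90.3 TPM, against 375 and 423 TPM for the 8 decay factors. Within that sum, complete coding transcripts of Arid5a held only 5.52 and 7.19 TPM. Coding models of Arid5a with an incomplete 3′ end held 22.7 and 18.25 TPM. Its models annotated as retained intron, processed transcript or target of nonsense-mediated decay held 18.34 and 17.19 TPM. Zfp36 alone was 2.88 and 3.32 times the level of Elavl1, which competes with it for AU-rich elements.

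In the order of mean levels, Zfp36, Zc3h12a, the next 4 genes as a block, Khsrp, Zfp36l2, Rc3h1 and Rc3h2 followed each other without overlap of the values of neighbours in the 2 libraries. Within the block, Elavl1, Arid5a, Zfp36l1 and Zc3h12c, which lay between 42.3 and 46.8 TPM on average, overlapped their neighbours, and of the pairs in it only Elavl1 and Zc3h12c did not overlap. Zfp36 was first and Zc3h12a second in both libraries, and the last 4 places were the same in both. In the second quantification the values of Zfp36, 105 and 142 TPM, overlapped those of Zc3h12a, 82.1 and 118 TPM. Within each library Zfp36 was still the higher there.

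Between the libraries none of the 10 genes was at least 1.5-fold apart, while 30.3% of the 12552 genes averaging 10 reads or more were. At a lower threshold of 0.32 on the log2 scale, 3 of the 10 passed, Zc3h12a higher in replicate 2 and Zfp36l1 and Rc3h2 higher in replicate 1, and 54.7% of genes did. The median absolute log2 ratio was 0.22 for the 10 and 0.32 for genes averaging 100 reads or more. Of the 10, 6 were higher in replicate 2 and 4 in replicate 1. The 95% counting interval of the ratio excluded 1 for 9 of the 10, all but Arid5a, but with 1 library on each side no test of a difference could be made.

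**Figure D2:**
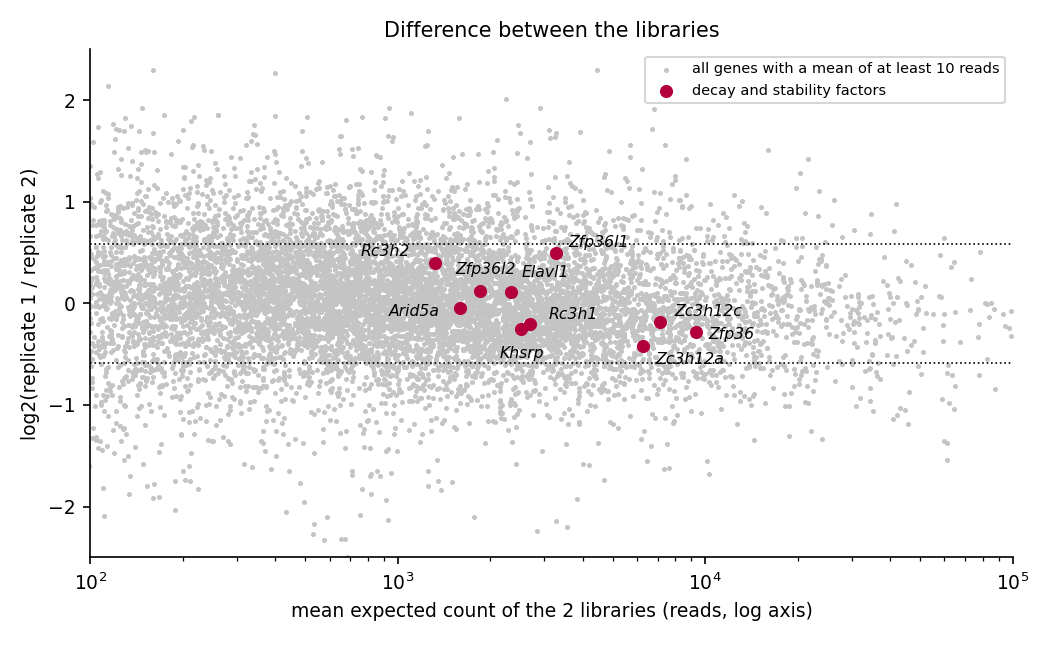
Log2 ratio of replicate 1 to replicate 2 (y axis) against the mean expected count (x axis, log scale). Grey points are genes of the table, red points the 10 decay and stability factors, and dotted lines 1.5-fold; genes outside the axis ranges are not shown. All 10 red points lie between the dotted lines, with Zfp36l1 at 0.49 nearest to the upper one and Zc3h12a at -0.42 nearest to the lower one.

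Each of the 10 genes was led by the same transcript in both libraries. GENCODE M21 lists 48 transcripts of these genes, and 15 held at least 10% of their gene's TPM in either library. Agreement on the leader between libraries, found for 10 of 10, was found for 86.6% of expressed protein-coding genes, and agreement in both quantifications as well, again 10 of 10, for 76.3%. It held at least 90% in both libraries for 6 genes, Zfp36l1, Zfp36l2, Zc3h12a, Zc3h12c, Rc3h1 and Khsrp, where 33.4% of expressed genes passed that share. Zfp36l2 has only 1 annotated transcript. Transcripts annotated as retained intron, processed transcript or target of nonsense-mediated decay reached 10% in both libraries for 2 of the 10, Elavl1 and Arid5a, and for 23.2% of expressed genes. In the second quantification Zc3h12a and Rc3h2 passed 10% as well, which makes 4 of the 10.

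**Figure D3:**
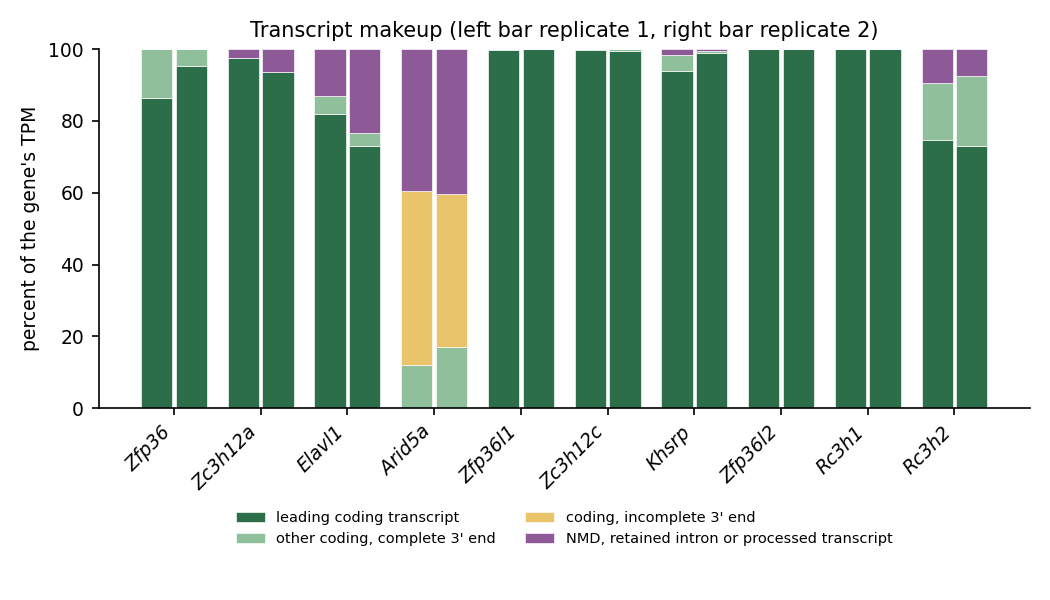
Percent of each gene's TPM in 4 classes of transcript, with replicate 1 as the left bar and replicate 2 as the right bar of each pair. Dark green is the leading transcript where it is protein coding, light green other coding transcripts with a complete 3′ end, yellow coding models with an incomplete 3′ end, and purple models of nonsense-mediated decay, retained intron or processed transcript. Arid5a has no dark green because its leading transcript is a nonsense-mediated decay model.

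Arid5a had the most divided makeup. Its leading transcript was Arid5a-205, annotated as a target of nonsense-mediated decay, with 38.8% of the gene's TPM in replicate 1 and 38.8% in replicate 2. This model lacks 2 internal exons of the coding Arid5a-201, one of 95 bases at chr1:36311874-36311968 and one of 121 bases at chr1:36317204-36317324. The coding models Arid5a-203, Arid5a-204 and Arid5a-207 also lack the 95-base exon but hold the bases of the 121-base one. The open reading frame of Arid5a-205 is 177 bases long, against 1857 in Arid5a-201 and 2052 in Arid5a-203. Complete coding transcripts, 5 in number, held 11.9% in replicate 1 and 16.9% in replicate 2, led by Arid5a-201 at 5.30% and 9.36%. The remainder lay in Arid5a-207, at 25.1% and 34.3%, and Arid5a-211, at 23.6% and 8.52%, which are short coding models with an incomplete 3′ end. Arid5a-211 differed most between libraries, at 11.0 TPM in replicate 1 and 3.63 TPM in replicate 2. In the second quantification Arid5a-205 also led, with 35.9% and 34.1%. Short models share exons with longer ones, so how reads are split among them depends on the quantification model. The TPM of the gene, unlike its read count, depends on that split.

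Elavl1 was led by Elavl1-204, with 81.9% of the gene's TPM in replicate 1 and 73.1% in replicate 2. A 613-base retained-intron model, Elavl1-203, held 12.9% and 23.4%, or 5.94 and 11.2 TPM, the larger value in replicate 2. The same order was seen in the second quantification, where the retained-intron models held 16.3% and 23.0% of Elavl1. The transcript with the long 3′ UTR, Elavl1-201, held 5.09% and 3.48%. It encodes the same length of open reading frame, 978 bases, but its 3′ UTR has 4218 bases against 1257 in Elavl1-204. The long form alone held heptamers, 8 of them, all inside nonamers and all beginning within bases 3795 to 3841 of the 3′ UTR, while Elavl1-204 held none. Of 617 expressed genes with a 3′ UTR of like length, 0.162% held 8 or more. One window of this run is shown beside one of Tnf, the best known target of tristetraprolin, to compare how matches are stacked. They lie on the minus strand of mm10 at chr8:4285777-4285803 and chr17:35199679-35199705, with the heptamer counted in capitals.
Elavl1-201 match 4: tttatttattTATTTATttttatttat
Tnf match 4: atttattattTATTTATtatttattta

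Tnf held 8 heptamers in a 3′ UTR of 764 bases, a density of 10.5 per kilobase, against 3.88 in Zfp36 and 0.642 over the 10 genes. Over the 9710 expressed genes with a complete 3′ UTR the density was 0.294. Of 16 expressed AU-rich target transcripts with a 3′ UTR, 14 held a heptamer, among them Cxcl2 with 7, Il1b with 3 and Il6 with 1. Among expressed protein-coding genes 26.4% did. The list was made of transcripts known to carry AU-rich elements, so its high count follows from that choice.

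**Figure D4:**
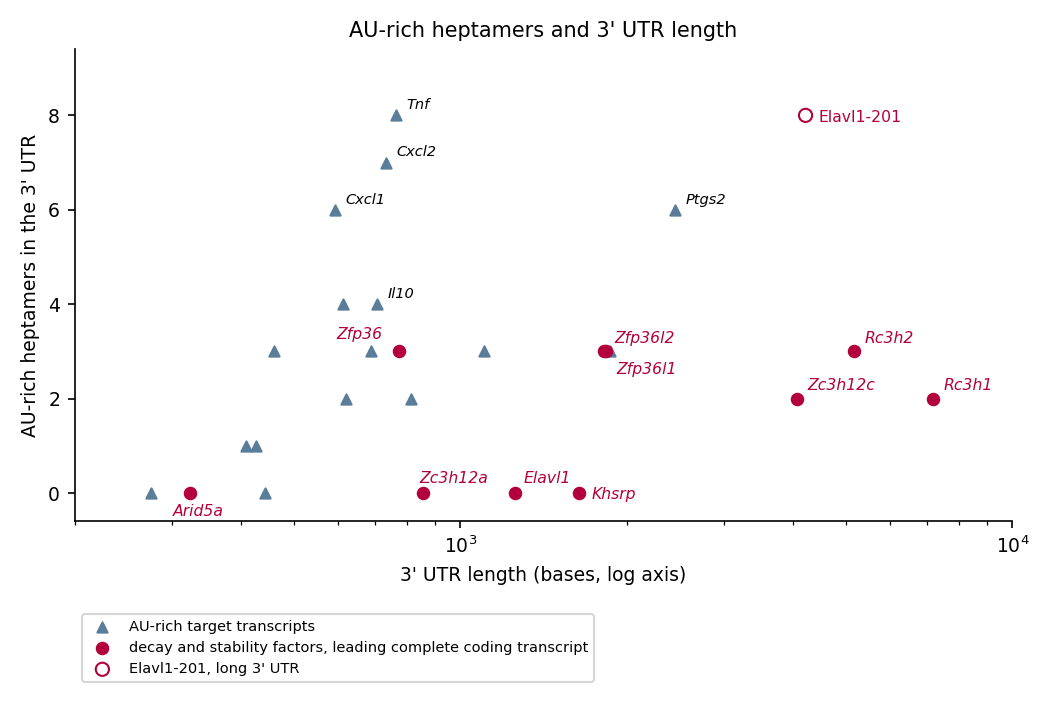
Number of AU-rich heptamers (y axis) against the length of the 3′ UTR in bases (x axis, log scale), for the highest complete coding transcript of each of the 10 genes (red circles) and of 16 target transcripts (blue triangles). The open circle is the long-UTR form of Elavl1, with 8 heptamers where the leading form has none. Zfp36 lies among the targets, with 3 heptamers in 774 bases, and 4 of the 10 genes have none.

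Zfp36 was led by the spliced Zfp36-201, at 114 TPM in replicate 1 and 151 TPM in replicate 2. A single-exon coding model, Zfp36-202, spans the gene's 680-base intron (chr7:28378494-28379173) without splicing. It held 18.1 TPM in replicate 1 and 7.2 TPM in replicate 2, which is 13.6% and 4.55% of the gene. In the second quantification it held 6.86% and 1.94%, so the share was lower there but again higher in replicate 1. The intervals deposited with the table, whose level is not stated, did not overlap for this transcript, at 13.4 to 21.1 TPM and 4.19 to 9.60 TPM. An antisense gene at the locus, Gm44710, had 4 and 10 reads.

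Among the other genes, Rc3h2 was led by Rc3h2-201 with 74.6% and 73.1%, and Rc3h2-202 held 15.7% and 19.4%. In the second quantification Rc3h2-201 held 53.4% and 54.3% and Rc3h2-202 held 33.5% and 31.8%. For Rc3h1 the quantifications differed: Rc3h1-202 held 100% in both libraries in the first, but 96.3% in replicate 1 and 62.6% in replicate 2 in the second, with the rest in Rc3h1-201, whose 3′ UTR ends after 20 bases. The retained-intron model of Zc3h12a, Zc3h12a-202, held 2.52% and 6.22%, and 10.7% and 11.0% in the second quantification. Khsrp-201 held 93.9% and 98.9%.

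The machinery that these factors work with, their regulators and other AU-rich element binders make up 94 genes in 7 lists, of which 72 reached 10 TPM in both libraries. For comparison, 5990 of the 9773 expressed protein-coding genes did, or 27.2% of all 22028 protein-coding genes. Whether any list below departs from that was not tested. Of these 94, 7 were at least 1.5-fold higher in replicate 1 and 12 in replicate 2, where all tested genes gave 16.4% and 13.9%. With the paralogs and the target transcripts, 97 of 133 related genes in 10 lists reached 10 TPM. Among deadenylation factors 15 of 19 reached 10 TPM, with the CCR4-NOT scaffold Cnot1 at 39.0 and 47.3 TPM and the poly(A)-binding protein Pabpc1 at 488 and 1243 TPM. Among decapping and 5′ decay factors 13 of 19 did, with the helicase Ddx6 at 60.1 and 66.7 TPM and the cap-binding protein Eif4e2 at 92.6 and 116 TPM. In the exosome and Ski complex 8 of 14 did, with the nuclease Exosc10 at 43.2 and 58.3 TPM and the core subunit Exosc5 at 21.4 and 7.65 TPM. The helicase Upf1, which Regnase-1 needs to act, had 20.6 and 19.7 TPM, and 5 of 8 genes of its list reached 10 TPM.

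Several regulators of the factors were abundant. Mapkapk2 (MK2, the kinase that phosphorylates tristetraprolin and weakens its recruitment of the deadenylase) had 341 and 397 TPM. Ppp2r1a, the scaffold of the phosphatase PP2A that acts against it, had 195 and 215 TPM, but by scaled read counts it was 1.29-fold higher in replicate 1, and in the second quantification it had 143 and 123 TPM. The 14-3-3 proteins, which bind phosphorylated tristetraprolin, were led by Ywhae at 333 and 905 TPM, and 6 of 7 reached 10 TPM. Malt1, the protease that cleaves Regnase-1 and Roquins, had 91.8 and 157 TPM, and Dusp1, the phosphatase that switches off p38, had 37.9 and 85.6 TPM. In this list of 13 kinases, phosphatases and proteases, 12 reached 10 TPM. Malt1 and Dusp1 were the 2 at least 1.5-fold apart, both higher in replicate 2, where 30.3% of all tested genes were as far apart.

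Other AU-rich element binders were also abundant, with 13 of 14 at 10 TPM or more. Pcbp2 had 527 and 599 TPM and Ybx1, a cold-shock domain protein, 382 and 748 TPM, both above Zfp36 on the same scale. Of the 14, 5 were at least 1.5-fold higher in replicate 2 and 1 in replicate 1, where all tested genes gave 13.9% and 16.4%. Of 10 paralogs of the factors 5 were expressed, led by the KSRP relative Fubp1 at 49.9 and 88.5 TPM, and the neuronal HuR relatives Elavl2 and Elavl4 had 0 reads.

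Among the target transcripts, unlike the 10 factors, many were past 1.5-fold between the libraries. Of 19 AU-rich target transcripts with at least 10 reads, 11 were at least 1.5-fold higher in replicate 2 and 2 in replicate 1. All tested genes gave 13.9% and 16.4%. The median log2 ratio of these 19, replicate 1 over replicate 2, was -0.87. Over all tested genes the median was 0.02, and over the 10 factors -0.12. Of 13 Regnase and Roquin targets, 6 were higher in replicate 2 and 2 in replicate 1, with a median of -0.42. The lists share 4 genes, Tnf, Il6, Ptgs2 and Csf2, and all but Tnf are among the genes higher in replicate 2 in both. Few reads lie behind Csf2 (12 in replicate 1 and 21 in replicate 2), Il23a (2 and 18) and Csf3 (8 and 12), all among the 11. Over both lists, 14 of 28 distinct genes were higher in replicate 2 and 4 in replicate 1. Zc3h12a is itself among the Regnase and Roquin targets, and its own ratio of -0.42 is the median of that list.

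Single targets show the size of that difference. Il6 had 10.7 TPM in replicate 1 and 36.3 TPM in replicate 2, and Il12b 34.9 and 159 TPM. Il1b had 604 and 1081 TPM, and Nfkbiz, an atypical IkB protein whose mRNA is cut by Regnase-1, 174 and 334 TPM. Tnf, at 1078 and 1184 TPM, had a log2 ratio of -0.15 after scaling. Ccl3, at 2083 and 1849 TPM, had 0.13 and Nfkbia, at 644 and 609 TPM, had 0.07. The 4 targets at least 1.5-fold higher in replicate 1 were Ccl2, Fos, Lcn2 and Tfrc, named after their values were seen. Their log2 ratios were 0.98, 1.56, 1.12 and 1.08. The ratio of Tnf to Zfp36 was 8.14 in replicate 1 and 7.49 in replicate 2. With 2 libraries no relation between factors and targets could be tested.

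**Figure D5:**
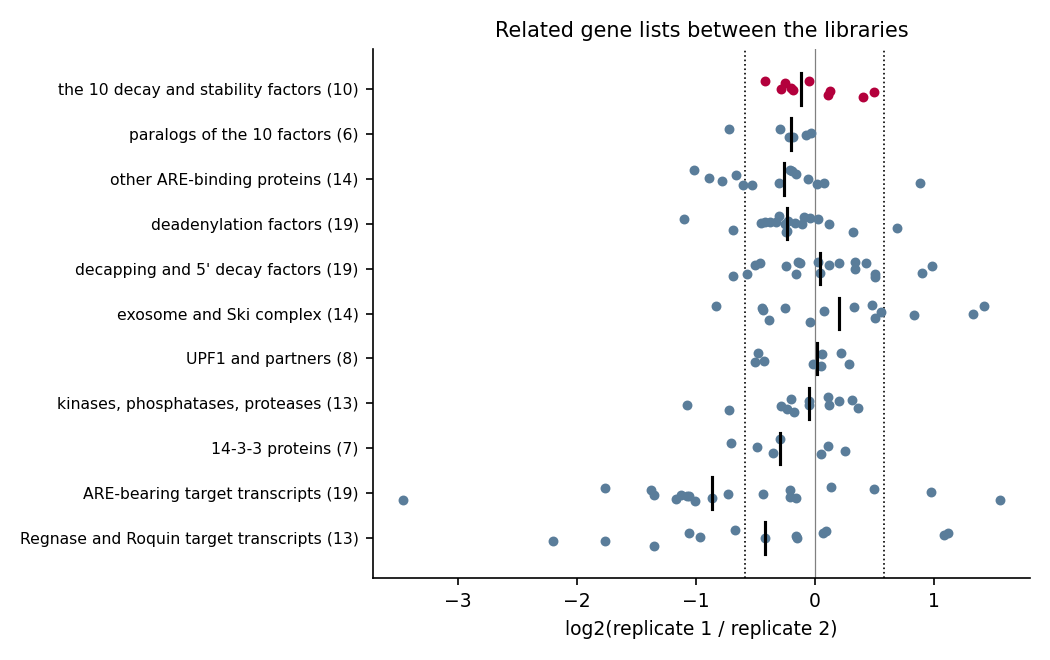
Log2 ratio of replicate 1 to replicate 2 for each gene averaging 10 reads or more, by list, with the number of genes in brackets. Black bars are medians, dotted lines mark 1.5-fold, and ARE stands for AU-rich element. The 10 factors (red) stay within the dotted lines, and the AU-rich targets have a median of -0.87, higher in replicate 2.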

How the data were processed

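The authors deposited 3 tables for each library, made against mm10 and GENCODE M21 per the notes deposited with each sample. For programs, versions and use of strand, nothing is given in the sources used here. Values in the deposited gene table are expected counts, which are fractional estimates of reads, with TPM and FPKM, all from transcriptome alignments. The deposited transcript table adds the percent of a gene's TPM in each transcript, and the authors' other columns, interval bounds on the TPM scale, enclose a separate posterior mean TPM and have no stated level. The other deposited transcript table (estimated counts and TPM, from reads and an index with no alignment file) is the second quantification, summed to genes here. Rows outside annotated genes held 0.0788% and 0.0771% of counts and were left out.

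Levels are TPM, with SD over 2 libraries. Between-library ratios, replicate 1 over replicate 2, were taken from expected counts with a prior of 0.5 reads and TMM-scaled totals (edgeR 4.0.16 in R 4.3.3). Their 95% intervals are exact binomial (Clopper-Pearson) and, like the floor of 3 reads, cover counting error only. The calculation was also run on simulated counts with known folds and counting error only. That run checks the calculation and not the spread between real libraries. No p-value was computed, since there is 1 group and 1 library on each side of a ratio. Expressed means at least 1 TPM in both libraries. Transcript shares are a transcript's TPM as percent of its gene's, and 3′ UTRs were read from the GENCODE M21 transcripts. Overlapping genes were looked up in the same annotation.

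The 10 genes and the related lists were chosen with earlier results of these data known. All 10 were named. Of each related or marker list, the text could name the 3 highest by mean TPM, the 1 furthest apart with a mean of at least 100 reads, and genes under 1 TPM. Transcripts, overlapping genes, target 3′ UTRs and the 4 targets higher in replicate 1 were named after their values were seen. Also tried were library totals, size factors from DESeq2 1.42.0, TPM ratios (pseudocount 0.01 or 1), other thresholds and filters, FPKM, TPM rescaled to nuclear protein-coding genes, the second quantification, and each library alone.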

Additional observations from a re-analysis of the deposited data

How the results depend on the processing

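The number of the 10 genes at least 1.5-fold apart between the libraries was 0 with DESeq2 size factors, library totals, TPM ratios, other count filters and a fold of 2. It was 1 in the second quantification and 1 with the reads of Gm26669 added to Zfp36l1, an alternative chosen after seeing the data, and Zfp36l1 was that gene in both. It was 3 at the lower fold threshold of 0.32 on the log2 scale. The number at 10 TPM or more was 8 to 10 over every threshold, unit and library tried, and the number led by a transcript of 90% or more was 4 to 7. The same transcript led in 10 of 10 throughout. Of the 10 ratios, 8 kept their direction under every alternative; the ratio of TPM turned that of Elavl1 to -0.05 and that of Arid5a to 0.13 on the log2 scale, and library totals turned that of Arid5a to 0.03. Leaving out a library leaves no ratio. No paired analysis was possible because the 2 libraries form 1 group. Depth does not limit these genes, which had at least 894 reads in each library, but the number of libraries does.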
